A study of Mus musculus with 6 samples.

Results

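T-box transcription factors share a DNA-binding domain named after brachyury, the product of the gene T. The 9 genes described here are T, Eomes, Tbx1, Tbx2, Tbx3, Tbx4, Tbx5, Tbx6 and Tbx20. They were taken by symbol from a table of 55487 genes, where brachyury stands as T, and each name matched 1 row. RNA was sequenced from 3 samples derived from Ts1Cje mouse embryonic stem cells and 3 derived from wild-type (WT) ones. Ts1Cje mice model Down syndrome because a distal segment of their chromosome 16 is triplicated, and are also known to carry a small deletion on chromosome 12. Cells of both genotypes were maintained in medium with KnockOut serum replacement and LIF, then induced towards primitive macrophage progenitors with VEGF, activin A, BMP-4 and FGF2 until day 4. The labels give a lot number for each sample. The design text speaks of different cells for each genotype but does not say whether these are lines, clones or cultures, so each p reflects the variation among these 6 samples, part of which may be technical, and genotype cannot be told apart from cell line.

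T and Eomes are switched on in the primitive streak, the site where the embryo's epiblast cells turn into mesoderm and endoderm. T is needed for posterior mesoderm and notochord, and its expression depends on WNT signalling through TCF/LEF factors. Eomes responds to NODAL and activin, is needed for endoderm and for the earliest mesoderm, including that of the heart, and has a separate role in trophoblast. Tbx6 acts after T in paraxial mesoderm, the source of the somites. Tbx2, Tbx3, Tbx4 and Tbx5 form 1 subfamily that arose by duplication of a linked pair, and they act in heart, limb, allantois and other organs. Tbx20 acts in the heart with Tbx5, and Tbx1 acts in pharyngeal mesoderm and endoderm.

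Libraries held 16577065 to 19010856 counts. On the first principal component of log2 CPM (counts scaled to a fixed library size), with 79.1% of the variance, the genotypes separated. WT replicate 1 lay apart from the other WT libraries on the next, with 8.31%, at 39.4 against -9.8 and -23.7. It also stood apart in most of the genes described here, so each of the 9 genes is given with its value without that library. Of 10 macrophage and myeloid markers, Ptprc and Cx3cr1 had no counts in any library, and the summed level was 28.3 to 30.7 CPM in Ts1Cje and 18.4 to 24.8 CPM in WT libraries. Only 3 of these 10 markers were tested, and the other 7 had too few counts. Of those tested, Cd68 was called higher and none was called lower.

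All 9 genes passed the filter on low counts and were tested with edgeR's quasi-likelihood test, which adjusts p over all 17315 genes tested. Tbx2, Tbx3, Tbx4, Tbx5 and Tbx20 were lower in Ts1Cje, none of the 9 was higher, and T, Eomes, Tbx1 and Tbx6 did not pass an adjusted p of 0.05. At an unadjusted p under 0.05, 1 was higher and 6 were lower. By other tests, DESeq2 called 0 higher and 6 lower, and limma-voom called 1 higher and 5 lower. Among all genes tested, 43.8% were called, with 23.3% higher and 20.5% lower. The 9 genes had a median log2 fold change of -1.88, against -0.01 over all genes tested. The libraries of the genotypes did not overlap for 6 of the 9 genes, and for 55.2% of all genes tested. Tbx4 and Tbx5 passed the filter mainly through WT libraries (all 3, and 1 of 3 in Ts1Cje), so the filter favoured a difference in that direction for them. In bulk RNA, fewer cells expressing a gene and less RNA per cell cannot be told apart.

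**Figure D1:**
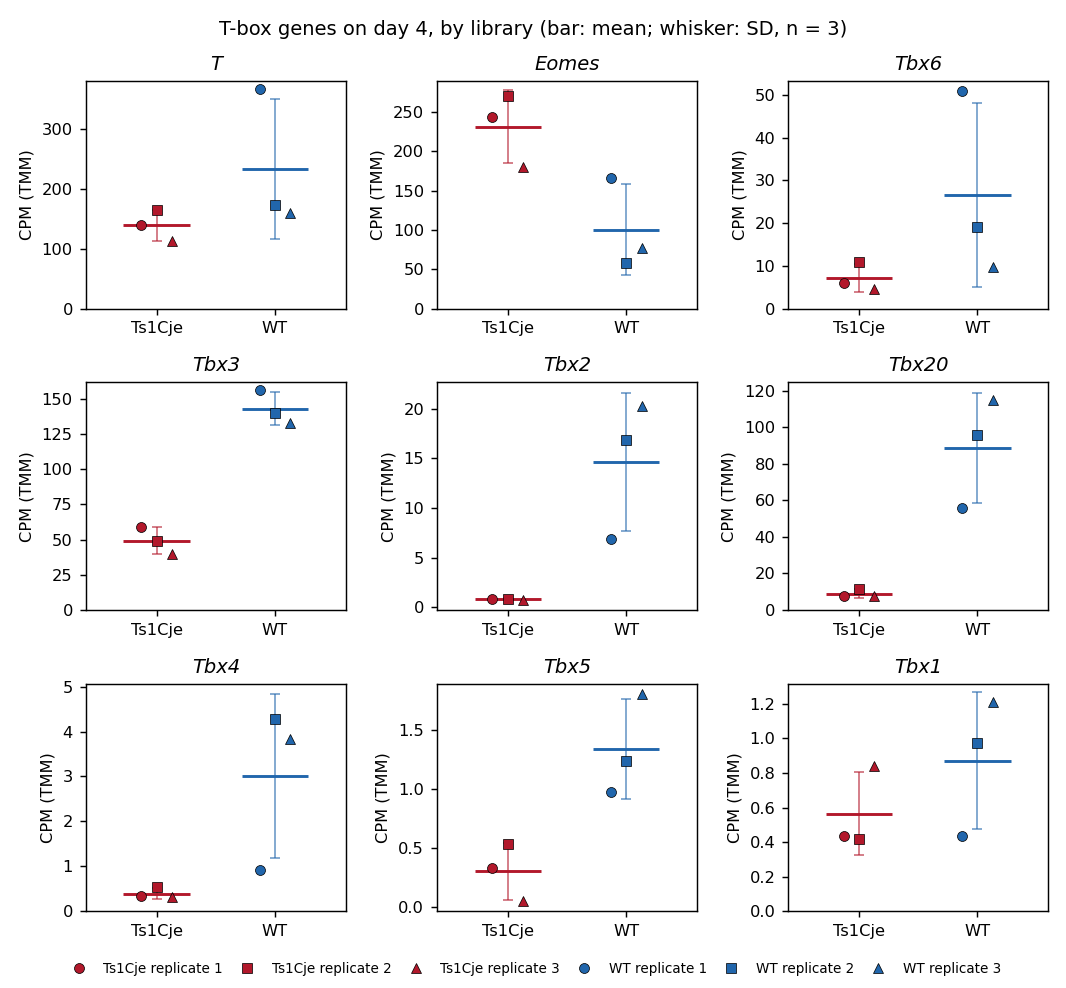
Level of each T-box gene in CPM (linear axis, a scale for each panel), with Ts1Cje libraries left and WT libraries right, a bar at the mean and a whisker of 1 SD (n = 3). Tbx2, Tbx3, Tbx4, Tbx5 and Tbx20 are lower in every Ts1Cje library than in any WT library, and Eomes is higher in every one. WT replicate 1 is the highest WT library for T, Eomes, Tbx6 and, by little, Tbx3. It is the lowest for Tbx2, Tbx20, Tbx4, Tbx5 and Tbx1.

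The streak genes T, Eomes and Tbx6 come first. RefSeq promoters (GRCm38.p6) were matched by symbol for 6 of the 9 genes, T, Eomes, Tbx1, Tbx4, Tbx6 and Tbx20. The 250 bases before the start are shown for T (chr17:8434173-8434422, plus strand), Eomes (chr9:118477939-118478188, plus strand), Tbx6 (chr7:126781233-126781482, plus strand) and Tbx20 (chr9:24774304-24774553, minus strand). They are shown because T and Eomes have the highest mean TPM of the 9 genes in both genotypes, Tbx6 acts after T, and Tbx20 changed most among the genes with a matched promoter. Capitals mark matches on either strand to the T-box core AGGTGT, the TCF/LEF core CTTTGA, the GATA core AGATAA, the TATA box TATAAA or the GC box GGGCGG. None of the matches overlap.
T: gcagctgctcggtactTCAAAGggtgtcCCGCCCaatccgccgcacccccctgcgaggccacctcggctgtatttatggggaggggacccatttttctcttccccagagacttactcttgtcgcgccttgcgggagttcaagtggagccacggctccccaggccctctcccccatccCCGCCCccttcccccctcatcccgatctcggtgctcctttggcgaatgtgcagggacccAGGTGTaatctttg
Eomes: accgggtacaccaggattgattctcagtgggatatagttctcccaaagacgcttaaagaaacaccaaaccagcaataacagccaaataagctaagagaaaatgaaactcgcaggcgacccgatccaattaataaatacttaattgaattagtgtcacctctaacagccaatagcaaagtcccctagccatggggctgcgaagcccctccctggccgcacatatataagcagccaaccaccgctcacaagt
Tbx6: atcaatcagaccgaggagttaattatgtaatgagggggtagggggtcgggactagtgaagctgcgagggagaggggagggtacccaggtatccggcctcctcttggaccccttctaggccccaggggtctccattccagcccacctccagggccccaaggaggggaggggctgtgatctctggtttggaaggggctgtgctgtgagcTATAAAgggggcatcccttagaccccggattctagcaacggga
Tbx20: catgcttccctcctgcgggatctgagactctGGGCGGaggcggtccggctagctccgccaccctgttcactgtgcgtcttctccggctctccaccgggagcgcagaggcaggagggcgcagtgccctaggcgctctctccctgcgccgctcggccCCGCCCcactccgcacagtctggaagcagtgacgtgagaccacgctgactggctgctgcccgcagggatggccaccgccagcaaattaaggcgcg

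The T window held a TCF/LEF core at 234 to 229 bases before the start, as TCAAAG on the strand shown, a T-box core at 14 to 9 bases, and GC boxes at 222 to 217 and 73 to 68 bases. The Eomes window held none of these letters. The Tbx6 window held a TATA box at 43 to 38 bases, and the Tbx20 window held GC boxes at 219 to 214 and 95 to 90 bases. Of 32851 RefSeq promoter windows of this length, 11.8% held the T-box core, 13.8% the TCF/LEF core, 9.99% the GATA core, 12.4% the TATA box and 32.7% the GC box. The windows not shown held a GC box in 1 of the Tbx1 starts, a T-box core in the other, and a GC box and a TATA box in Tbx4. A match describes the letters only.

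T (ENSMUSG00000062327, mm10, chromosome 17, 8434423 to 8442496, plus strand) stood at 139.7, 165 and 113 CPM in Ts1Cje and 367, 173 and 159 CPM in WT libraries. The groups overlapped, since WT replicates 2 and 3 lay close to Ts1Cje replicate 2. The log2 fold change was -0.74 ± 0.38 (SE, adjusted p = 0.183, edgeR's quasi-likelihood test). Without WT replicate 1 it was -0.26 ± 0.15 (adjusted p = 0.199), so most of the difference in means came from that library. T was thus still expressed at a high level in both genotypes on day 4.

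Eomes (ENSMUSG00000032446, chromosome 9, 118478212 to 118486132, plus strand) stood at 244, 270.2 and 180 CPM in Ts1Cje and 166, 58.1 and 77.2 CPM in WT libraries. Every Ts1Cje library lay above every WT library, with WT replicate 1 nearest to Ts1Cje. Its log2 fold change of 1.20 ± 0.45 did not pass (adjusted p = 0.0864). It passed without WT replicate 1 (1.77 ± 0.23, adjusted p = 0.00273), with limma-voom (1.33, adjusted p = 0.00737) and with limma-trend on TPM (1.32, adjusted p = 0.0218). The antisense gene Gm33460 overlaps Eomes by 574 bases on the other strand. It stood at 24.2, 21.9 and 13.1 CPM in Ts1Cje and 10.7, 3.52 and 6.25 CPM in WT libraries and was higher (1.53 ± 0.42, adjusted p = 0.0249). The counting strand is not given in the sources used here, so reads in the shared part cannot be assigned with certainty to either gene.

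Eomes is also a gene of trophoblast and of endoderm-forming streak. Of 10 trophoblast markers 8 were tested, 4 higher (Krt7, Krt8, Krt18 and Ascl2) and 2 lower (Hand1 and Cdx2). Their summed level was 927 to 1444 CPM in Ts1Cje and 1042 to 1409 CPM in WT libraries. Hand1 alone gave 10.7 to 26.1 CPM of it in Ts1Cje and 422 to 687 CPM in WT. The overlapping sums thus do not mean that the same genes made them up. The placental markers Elf5 and Tpbpa had 9 counts and 1 count over the Ts1Cje libraries and 1 and 0 over WT. Of 11 definitive and visceral endoderm markers 10 were higher, with summed levels of 1071 to 1544 CPM in Ts1Cje and 411 to 489 CPM in WT libraries. Of 8 pluripotency markers 6 were higher, with 419.9 to 654 CPM in Ts1Cje and 52.4 to 177 CPM in WT. The part of these other cell states in the Eomes level was not tested.

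Tbx6 (ENSMUSG00000030699, chromosome 7, 126781483 to 126785560, plus strand) stood at 6.14, 10.9 and 4.67 CPM in Ts1Cje and 50.9, 19.2 and 9.65 CPM in WT libraries. WT replicate 1 was the highest of all and WT replicate 3 lay below Ts1Cje replicate 2, so the groups overlapped. At -1.88 ± 0.73 on the log2 scale, the difference did not pass (adjusted p = 0.0947). Without WT replicate 1 it was -1.0 ± 0.44 (adjusted p = 0.125). It passed with DESeq2 (-1.89, adjusted p = 0.0364) and without WT replicate 3 (-2.29, adjusted p = 0.0313). Ppp4c and Ypel3 lie 306 and 969 bases from Tbx6 without overlap and were lower (-0.36 ± 0.07 and -1.02 ± 0.11). Whether Tbx6 differed by more than these neighbours was not tested.

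The genes of the Tbx2 subfamily lie as linked pairs, Tbx2 with Tbx4 on chromosome 11 (44.5 kb apart) and Tbx3 with Tbx5 on chromosome 5 (148 kb apart). All 4 fell. Tbx2 and Tbx3 encode repressors, and Tbx4 and Tbx5 encode activators known for hindlimb and allantois, and for forelimb and heart.

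Tbx2 (ENSMUSG00000000093, chromosome 11, 85832551 to 85841948, plus strand) stood at 0.877, 0.894 and 0.787 CPM in Ts1Cje and 6.93, 16.8 and 20.3 CPM in WT libraries. The Ts1Cje libraries were close to each other and far below the lowest WT library, replicate 1. Tbx2 had 16, 15 and 15 counts in Ts1Cje and 128, 310 and 371 in WT libraries. The log2 fold change was -4.10 ± 0.44, or 17.1-fold lower (adjusted p = 0.000172), and -4.44 ± 0.21 without WT replicate 1. This was the largest fold change among the 9 genes. Its linked neighbour Tbx4 (ENSMUSG00000000094, 85886422 to 85916097, plus strand) had 6, 9 and 6 counts in Ts1Cje and 17, 79 and 70 in WT libraries. WT replicate 1 again lay lowest, though above all of Ts1Cje. Tbx4 fell by 2.93 on the log2 scale (SE 0.60, adjusted p = 0.00371), and by 3.36 without WT replicate 1. Bcas3, 6.49 kb from Tbx2 on the other side from Tbx4, stood at 0.01 ± 0.11 (adjusted p = 0.926), and the transcript 2610027K06Rik, 328 bases from Tbx2 on the opposite strand, at -0.43 ± 0.27 (adjusted p = 0.226).

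Tbx3 (ENSMUSG00000018604, chromosome 5, 119670669 to 119684724, plus strand) stood at 59.3, 48.7 and 40.1 CPM in Ts1Cje and 156, 140 and 133 CPM in WT libraries. It had the smallest adjusted p of the 9 genes, and the WT libraries lay close together, replicate 1 included. The log2 fold change was -1.53 ± 0.13, or 2.90-fold lower (adjusted p = 3.82e-05), and -1.47 ± 0.14 without WT replicate 1. Tbx3 is also known as a factor of naive stem cells, and it was lower where 6 of the 8 pluripotency markers above were higher. The antisense gene Tbx3os1 overlaps Tbx3 by 697 bases and was lower too, at 2.63, 2.32 and 2.31 CPM in Ts1Cje and 8.93, 8.71 and 6.47 CPM in WT libraries (-1.73 ± 0.21, adjusted p = 0.000149). As with Eomes, reads in the shared part are uncertain.

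Tbx5 (ENSMUSG00000018263, chromosome 5, 119832668 to 119885219, plus strand) was the least abundant of the 9 in Ts1Cje. It had 6, 9 and 1 counts in Ts1Cje and 18, 23 and 33 in WT libraries. The groups did not overlap, but 1 count in Ts1Cje replicate 3 leaves that library's level poorly known. Tbx5 fell by 2.14 on the log2 scale (SE 0.59, adjusted p = 0.0142). The call was lost without WT replicate 3 (-1.87, adjusted p = 0.0579), and without WT replicate 1 the value was -2.33.

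Tbx20 (ENSMUSG00000031965, chromosome 9, 24718138 to 24774303, minus strand) stood at 7.56, 11.7 and 7.82 CPM in Ts1Cje and 56.0, 95.5 and 115 CPM in WT libraries. Again WT replicate 1 was the lowest of its group and well above the highest Ts1Cje library. The log2 fold change was -3.30 ± 0.33, or 9.86-fold lower (adjusted p = 0.000531), and -3.55 ± 0.18 without WT replicate 1. Of 6 cardiac mesoderm markers 3 were lower (Nkx2-5, Actc1 and Hand2), 0 were higher and 3 did not pass. Their summed levels were 9.64 to 19.2 CPM in Ts1Cje and 64.7 to 119 CPM in WT libraries. Hand2 alone gave 2.58 to 8.34 CPM of these sums in Ts1Cje and 43.5 to 101 CPM in WT. Of 10 vessel and hemogenic endothelium markers 7 were lower and 2 higher (Kit, and Runx1 from the triplicated part), with 264 to 335 CPM in Ts1Cje and 666 to 799 CPM in WT libraries. Of 7 fibroblast markers 3 were tested and 2 were lower, with 9.81 to 11.2 CPM in Ts1Cje and 21.5 to 55.2 CPM in WT libraries. The part of these cell types in the falls of Tbx20 and the Tbx2 subfamily was not tested.

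Tbx1 (ENSMUSG00000009097, 18580979 to 18590671, minus strand) is the only one of the 9 on chromosome 16, 71.6 Mb before Sod1, which lies at the edge of the triplicated part. None of the 9 genes lies in that part. Tbx1 had 8, 7 and 16 counts in Ts1Cje and 8, 18 and 22 in WT libraries. Replicate 1 of each genotype had 8 counts, and the groups overlapped. Its log2 fold change was -0.61 ± 0.50 (adjusted p = 0.362), and -0.93 without WT replicate 1 (adjusted p = 0.146). The SE is close to the size of the difference, and Tbx1 was shown neither to differ nor to be alike.

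**Figure D2:**
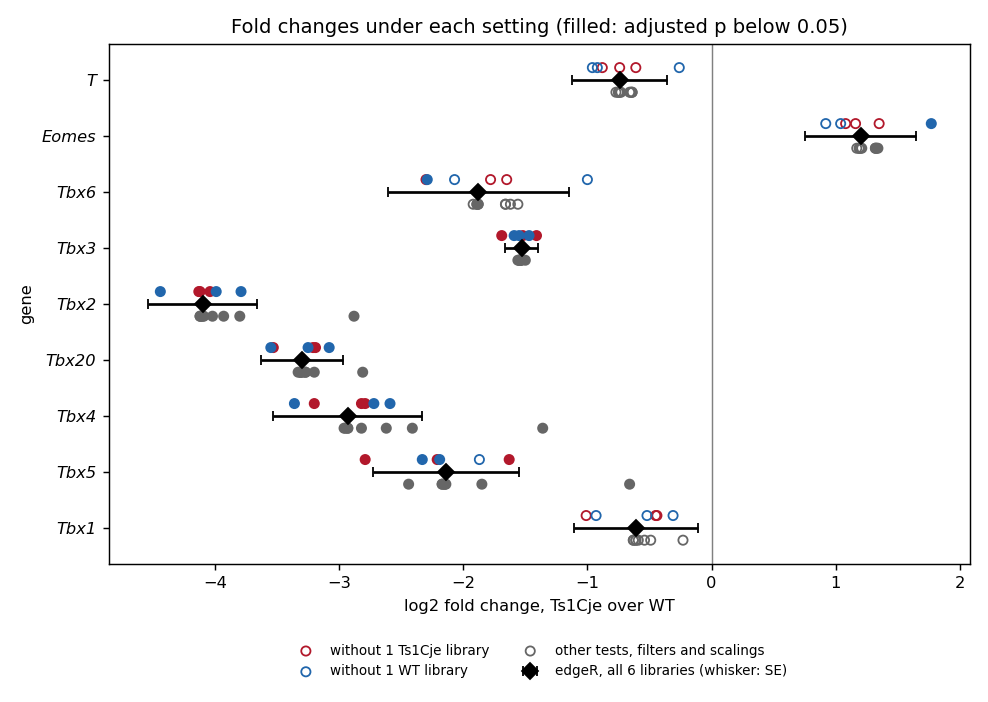
Log2 fold change of each gene, Ts1Cje over WT, with all 6 libraries (diamond, whisker of 1 SE), without 1 library (coloured circles) and under other tests, filters and scalings (grey circles), filled where the adjusted p is below 0.05. No gene changes sign, T and Tbx1 are open throughout, and Tbx5 is open only without WT replicate 3.

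Deposited TPM values are scaled by length and allow levels to be compared between genes. In Ts1Cje, T and Eomes led at 195 ± 38.0 and 180 ± 37.2 TPM (SD, n = 3) and their ranges overlapped. Next came Tbx3 at 24.1 ± 4.52 and Tbx6 at 13 ± 6.01 TPM, whose ranges also overlapped, then Tbx20 at 2.44 ± 0.663 TPM. Tbx2 (0.759 ± 0.0547), Tbx1 (0.518 ± 0.217), Tbx4 (0.374 ± 0.123) and Tbx5 (0.212 ± 0.170 TPM) followed, each with a range that overlapped its neighbour's.

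In WT, T stood above all others at 326 ± 169 TPM. Eomes (78.3 ± 46.5), Tbx3 (69.4 ± 7.12), Tbx6 (47.9 ± 39.8), Tbx20 (23.7 ± 7.59) and Tbx2 (12.9 ± 5.91 TPM) came next, and neighbours in this order were not separated. Tbx4 (2.83 ± 1.70), Tbx5 (0.918 ± 0.270) and Tbx1 (0.791 ± 0.347 TPM) lay below Tbx2 and overlapped their neighbours. T and Eomes made up 89.8%, 90.1% and 90.3% of the summed TPM of the 9 genes in Ts1Cje libraries, against 77.1%, 65.8% and 67.3% in WT libraries. The sum itself was 423, 495 and 328 TPM in Ts1Cje and 844, 434 and 408 TPM in WT, so the groups overlapped in the total.

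**Figure D3:**
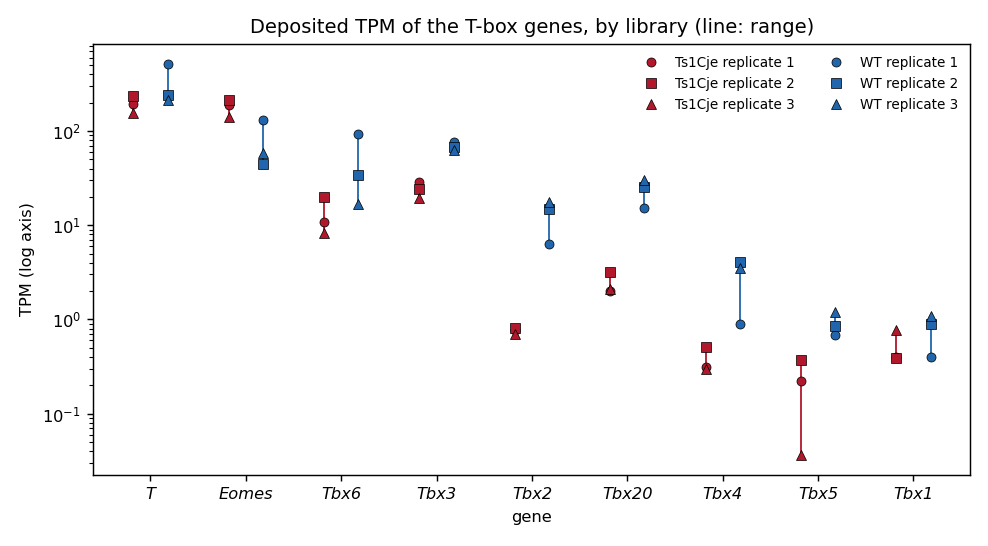
Deposited TPM of each gene by library on a log axis, with Ts1Cje left of WT and a line over the range of 3 libraries. T and Eomes are alike in Ts1Cje (195 and 180 TPM on average) and apart in WT (326 and 78.3 TPM), while Tbx2 lies near Tbx1 in Ts1Cje at 0.759 TPM and well above it in WT at 12.9 TPM.

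Ratios of TPM within a library do not depend on how libraries are scaled. Of these genes, 6 pairs were compared after the values had been seen, with p adjusted over the 6. The ratio of Eomes to T was 0.973, 0.912 and 0.887 in Ts1Cje and 0.253, 0.187 and 0.270 in WT libraries. WT replicate 1, which stood apart in the level of both genes, lay between the other WT libraries in their ratio. The log2 ratio was 1.98 higher in Ts1Cje (2-sided exact permutation test, p = 0.1, the smallest that 3 against 3 libraries allow, adjusted p = 0.2), and 2.04 higher without WT replicate 1. The ratio of Tbx6 to T was 0.0564, 0.0847 and 0.0530 in Ts1Cje and 0.178, 0.142 and 0.0777 in WT libraries, and the groups overlapped.

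In the Tbx2 subfamily, the ratio of Tbx2 to Tbx3 was 0.0270, 0.0335 and 0.0358 in Ts1Cje and 0.0813, 0.219 and 0.279 in WT libraries, a log2 difference of -2.42 (exact permutation p = 0.1, adjusted p = 0.2). The ratio was lower in every Ts1Cje library than in any WT library. Tbx2 had only 15 or 16 counts in each Ts1Cje library, so this ratio is imprecise there. The ratio of Tbx4 to its neighbour Tbx2 was higher in Ts1Cje, at 0.400, 0.640 and 0.426, than in WT, at 0.142, 0.272 and 0.201 (log2 difference 1.27, exact permutation p = 0.1, adjusted p = 0.2). Counts of Tbx4 in Ts1Cje were under 10 in each library, so this ratio is imprecise. The ratios of Tbx4 to Tbx5 and of Tbx5 to Tbx3 overlapped between genotypes.

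**Figure D4:**
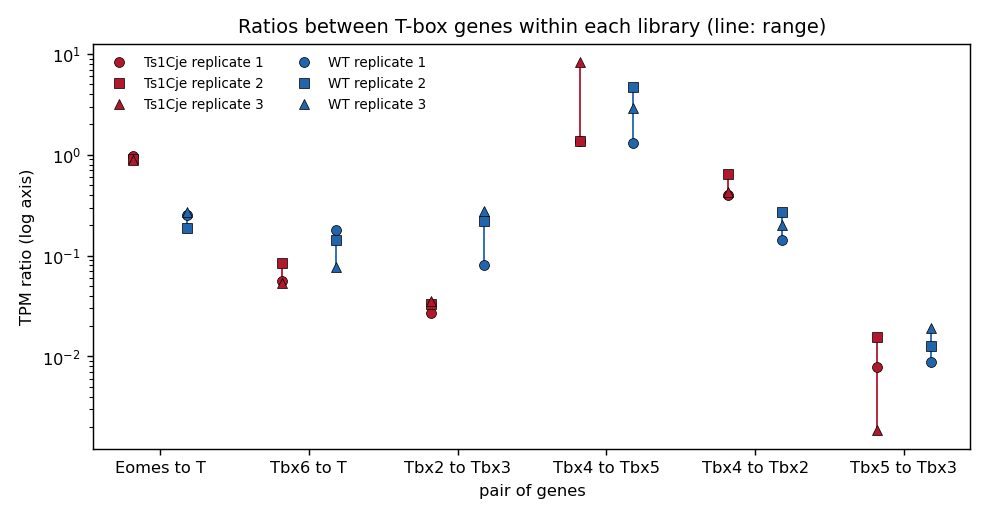
TPM ratio of 6 pairs of T-box genes within each library on a log axis, with Ts1Cje left of WT and a line over the range of 3 libraries. Eomes to T lies between 0.887 and 0.973 in Ts1Cje and between 0.187 and 0.270 in WT, and Tbx2 to Tbx3 and Tbx4 to Tbx2 also do not overlap.

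The mouse table held 8 further T-box genes, of which 3 were tested and none passed, while 5 had too few counts. Mga, a large factor that joins a T-box to a MAX-binding domain, stood at 246 ± 7.91 CPM in Ts1Cje and 274 ± 12.8 CPM in WT (-0.16 ± 0.06, adjusted p = 0.0604), and was called lower with upper-quartile factors and without WT replicate 3 (adjusted p = 0.0319 and 0.0495). Tbx15 stood at 0.76 ± 0.41 and Tbr1, a factor of the cortex and the closest relative of Eomes, at 0.62 ± 0.57, with adjusted p of 0.158 and 0.409. Tbx22 had no counts, and Tbx10, Tbx18, Tbx19 and Tbx21 had between 0 and 4 counts in each library.

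The list of signals and effectors that induce T and Eomes was mostly lower, though its genes Nodal and Tdgf1 stood higher, as given below. Of 15 genes 14 were tested, 9 lower and 2 higher, with a median of -0.52 on the log2 scale. Foxh1, the NODAL effector that partners SMAD proteins, stood at 100.4 ± 12.7 CPM in Ts1Cje and 229.6 ± 10.7 CPM in WT (SD, n = 3; -1.19 ± 0.09). Tcf7 (-0.66 ± 0.09), a WNT effector, and Smad3 (-0.60 ± 0.12) fell by less, and the growth factor gene Bmp4 by more (-4.43 ± 0.37). Lef1 (-1.92 ± 0.29), Wnt3a (-2.86 ± 0.71) and Wnt3 (-0.96 ± 0.22) of the WNT side, named after their values were seen, were also lower. Wnt3a lost its call without Ts1Cje replicate 1 or 3. The genes called higher were Ctnnb1, which encodes beta-catenin (0.21 ± 0.05), and the ligand gene Nodal. Nodal stood at 27.9 ± 8.77 CPM in Ts1Cje and 10.9 ± 6.10 CPM in WT (1.36 ± 0.43, adjusted p = 0.0447). Nodal lost its call without any 1 of the Ts1Cje libraries or WT replicate 2 or 3 (adjusted p = 0.0581 to 0.124). The call was also lost with upper-quartile factors (0.0524) and with no low count filter (0.161). Tdgf1, of the same list, stood higher in every Ts1Cje library than in any WT library but did not pass (1.28 ± 0.55, adjusted p = 0.121). It passed without WT replicate 1 (2.03, adjusted p = 0.00728), with limma-voom (1.47, adjusted p = 0.0111) and with limma-trend on TPM.

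Of 17 genes downstream of T and Tbx6 in posterior and paraxial mesoderm 16 were tested. The test called 10 lower and 0 higher and 6 did not pass, with a median of -1.66. The WNT agonist gene Rspo3 stood at 27.1 ± 9.25 CPM in Ts1Cje and 149 ± 33.0 CPM in WT (-2.46 ± 0.29). The ligand genes Wnt5a (-2.76 ± 0.34) and Fgf8 (-0.45 ± 0.10) and the somite homeobox gene Meox1 (-2.10 ± 0.41) fell too. Msgn1, a factor of presomitic mesoderm named after its values were seen, stood at 1.23 ± 0.636 CPM in Ts1Cje and 20.0 ± 15 CPM in WT (-4.04 ± 0.78, adjusted p = 0.00907, and 0.0529 without Ts1Cje replicate 1). Without WT replicate 1, Sp5 and Pcdh8 were called higher, and without Ts1Cje replicate 1, 6 genes were lower in place of 10. T itself stood close in the 2 genotypes without WT replicate 1, as given above. Tbx6 stood at -1.0 ± 0.44 without that library and did not pass.

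Genes downstream of Eomes went both ways. Of 10 genes, all tested, 6 were higher and 2 lower, with a median of 1.79. The higher ones were endoderm and organizer genes, among them Sox17 at 194 ± 29.1 CPM in Ts1Cje and 21.4 ± 1.78 CPM in WT (3.18 ± 0.12), Foxa2 (4.41 ± 0.24) and Gsc (2.81 ± 0.22). The lower ones were Mesp1, the earliest factor of heart and blood mesoderm, at 22.2 ± 12.8 CPM in Ts1Cje and 98.5 ± 16.5 CPM in WT (-2.16 ± 0.42, adjusted p = 0.0106), and Snai1, a factor of epithelial-mesenchymal transition (-1.15 ± 0.26, adjusted p = 0.0142). Both lost their calls without Ts1Cje replicate 1 (adjusted p = 0.0504 and 0.0714).

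Cardiac partners and targets of Tbx5 and Tbx20 were mostly lower. Of 16 genes 13 were tested, 9 lower and 1 higher, with a median of -2.38. Hand1, a factor of extraembryonic and heart mesoderm, stood at 17.3 ± 7.93 CPM in Ts1Cje and 589 ± 146 CPM in WT (-5.10 ± 0.42). Mef2c (-2.70 ± 0.38) and the pacemaker channel gene Hcn4 (-2.62 ± 0.31) fell, and Gata4, which also marks endoderm, was higher (0.55 ± 0.08). Nppa, Nppb and Bmp10, chamber genes of a beating heart, had too few counts to be tested.

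Pharyngeal genes linked to Tbx1 went both ways, with 6 lower, 3 higher and 2 not passed of 11 tested (median -0.45). The lymphatic receptor gene Flt4 (-1.38 ± 0.12) and the ligand gene Fgf10 (-1.27 ± 0.15) fell. Eya1 was among the higher ones (1.64 ± 0.22). Genes linked to repression by Tbx2 and Tbx3 were higher in 7 of 8 tested, with a median of 1.85 and Gja5 not passed. Among all genes tested, 23.3% were higher. This list, like the others, was chosen with earlier results of these data known. Without WT replicate 2 or 3, 6 of its genes were higher, since Gja1 lost its call. The higher genes included the cell cycle inhibitor gene Cdkn1a, at 81.8 ± 4.19 CPM in Ts1Cje and 34.6 ± 4.32 CPM in WT (1.24 ± 0.10). Cdkn2a (2.61 ± 0.28), another such inhibitor gene, and the pluripotency gene Nanog (2.80 ± 0.41) were higher too. Tbx3 is also known as a factor of naive stem cells, so a link of Nanog to repression by it is uncertain. Nanog is itself 1 of the 8 pluripotency markers above, of which 6 were higher in Ts1Cje. Cdh1, also among the higher genes, belongs to epithelium too, for which no separate list of markers was read out. The keratin genes Krt7, Krt8 and Krt18, higher among the trophoblast markers above, are epithelial as well. The part of such cells in these higher levels was not tested.

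Co-repressors that T-box factors recruit, listed with their short relative Tle5, changed in both directions. Of 8 genes 7 were tested, 4 higher and 2 lower, with a median of 0.98. Tle5, a short Groucho protein that lacks the repeats of the others, stood at 62.2 ± 4.75 CPM in Ts1Cje and 7.68 ± 0.443 CPM in WT (3.02 ± 0.11, adjusted p = 4.1e-07). Tle2 (3.32 ± 0.27), Tle1 (0.98 ± 0.09) and Ripply3, a Tbx1-binding co-repressor (1.99 ± 0.38), were also higher. Tle5 and Tle2 lie close together on chromosome 10 (81559488 to 81566362 and 81574561 to 81590845, both plus strand). Whether their rises are separate was not tested. Ripply3 lies beyond Sod1 on chromosome 16, in the triplicated part. In contrast, Tle3 (-0.43 ± 0.09) and Tle4 (-0.53 ± 0.10) were lower. Fgf8, Wnt3a, Snai1, Ripply2, Isl1, Nppa and Gja5 stand in more than 1 of these lists, so the lists are not independent of each other. The marker lists share genes with them as well. Nkx2-5, Hand2, Actc1, Myl7 and Tnnt2 are also cardiac markers, and Sox17, Foxa2, Gata6 and Gata4 endoderm markers. Hand1 is also a trophoblast marker and Nanog a pluripotency marker.

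**Figure D5:**
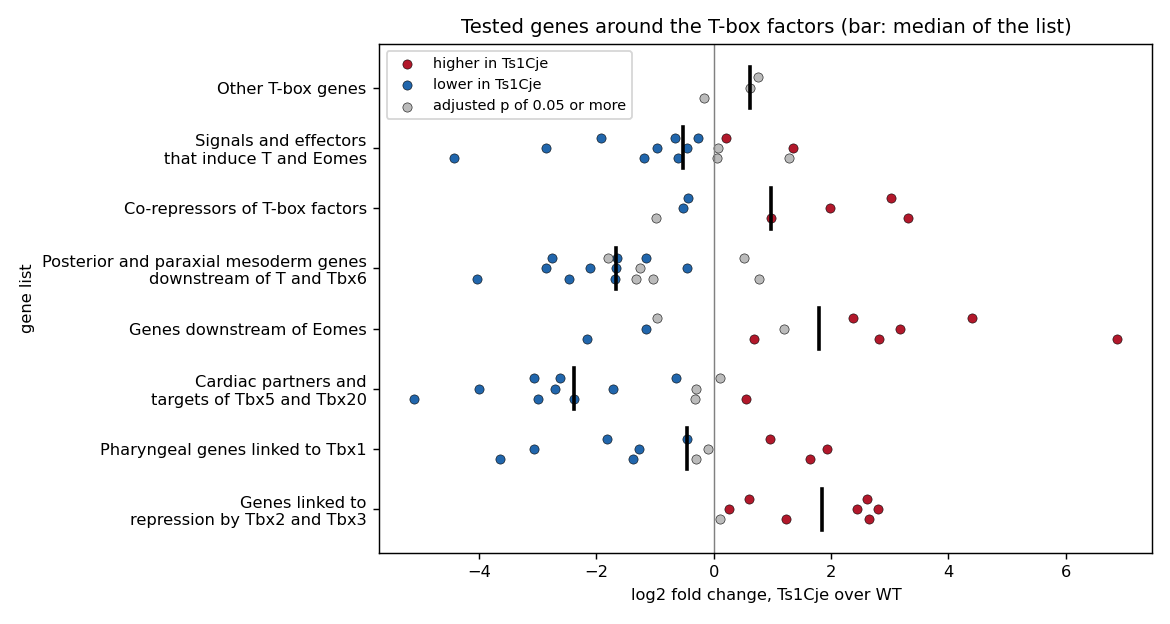
Log2 fold change, Ts1Cje over WT, of each tested gene in 8 lists around the T-box factors, coloured by call, with a bar at the median of the list. The lists of genes downstream of T and Tbx6 and of cardiac genes have medians of -1.66 and -2.38, and those downstream of Eomes and linked to repression by Tbx2 and Tbx3 have medians of 1.79 and 1.85.

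For each of the 5 genes that fell, the 13814 protein-coding genes tested were ranked by how near their log2 CPM, centred over the 6 libraries, lay to that gene (Euclidean distance). The nearest to Tbx3 were Bmper, a BMP-binding protein gene (distance 0.117), and Itga4 (0.247). Bmper stood at 20.3, 17.4 and 13.9 CPM in Ts1Cje and 56.5, 53.1 and 47.1 CPM in WT libraries. The nearest to Tbx20 were Crb2, a polarity gene (0.218), and Erg, an endothelial factor that lies in the triplicated part of chromosome 16 (0.305). Tspan18 and Smtnl2 lay nearest to Tbx4, Mill2 and Cnrip1 to Tbx5, and Ntsr1 and Clec4f to Tbx2, at distances of 0.468 to 0.794. Clec4f had 0 counts and Ntsr1 had 1 count in each Ts1Cje library, so their distances from Tbx2 depend on the prior count added before the log. Among the 9 genes themselves, Tbx2 and Tbx20 were the closest pair (0.906) and Eomes and Tbx2 the farthest (6.68).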

How the data were processed

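Raw counts of reads for each Ensembl gene were deposited by the authors. They also deposited TPM (scaled by gene length to a fixed total per library) for the same genes. Per the submitters' processing notes reads were handled with featureCounts 1.6.3, HISAT2 2.1.0, Trimmomatic 0.38 and FastQC 0.11.7 on mm10. The sources used here do not give the counting strand or the lengths behind TPM. Libraries were poly(A)-selected and directional, per the labels. Counts were kept with filterByExpr (minimum count 10, minimum total 15), scaled with TMM and tested with edgeR 4.0.16 (robust quasi-likelihood fit, no covariate, R 4.3.3), with p adjusted by the Benjamini-Hochberg method across the genes kept and a threshold of 0.05. Each SE was the size of the log2 value divided by the root of its F statistic. Fold changes are Ts1Cje over WT. CPM uses TMM scaling. DESeq2 1.42.0, limma 3.58.1 (voom, and trend on TPM with pseudocounts of 1 and 0.1), other scalings and filters, a lot block and leaving out each library were alternatives. The fit was tested on simulated data. No library was a duplicate of another, since chi-square per degree of freedom was 4.52 to 16.8 within genotypes. The T-box genes and the gene lists were chosen with earlier results of these data known. From each list, the 4 genes with the smallest adjusted p and those moving against most of the list are named, unless said otherwise. Some genes that this rule would name are not reported here. Reads carry no molecular identifiers, so counting error may be understated.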

Additional observations from a re-analysis of the deposited data

How the results depend on the processing

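No T-box gene changed sign under any of the alternatives run. The number called lower was 5 under the alternatives, except 6 with DESeq2 and 3 when genes needed a mean log2 CPM of at least 1, which leaves Tbx1, Tbx4 and Tbx5 untested. Without WT replicate 3 the 5 included Tbx6 and not Tbx5. The number called higher was 1 (Eomes) with limma-voom, limma-trend on log2(TPM + 1) and limma-trend on log2(TPM + 0.1), and 0 to 1 on leaving out 1 library. Over all genes, 6039 to 8326 were called under the alternatives run, against 7579. With a pseudocount of 1 TPM, the log2 fold changes of the low genes shrank by construction of that scale. They were -2.88 for Tbx2, -1.36 for Tbx4 and -0.66 for Tbx5. With the lot number as a replicate block, 8326 genes were called (4361 higher, 3965 lower), and 0 T-box genes were higher and 5 lower. Same-numbered libraries had correlated deviations of 0.219, 0.059 and 0.202, and each library correlated best with its own number, a hint from the data and not the design; the labels do not say that lots pair the samples. Mesp1, Mesp2 and Foxc1 lost their calls under that block (adjusted p = 0.0659, 0.0536 and 0.0621). Of 240 list counts under alternatives 15 moved by over 1.5 times, and of 1133 fold changes of list genes 23 lost and 22 gained a call, with 0 reversed. Values of Tbx1, Tbx2, Tbx4 and Tbx5 rest on 1 to 16 counts per Ts1Cje library.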

Other observations

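Genes around the T-box loci were read out from the same fit after the data had been seen. Of 28 protein-coding genes within 100 kb of any of the 9 genes, 21 were tested, 1 higher and 8 lower. For comparison, 43.8% of all genes tested were called in either direction, 23.3% higher and 20.5% lower. The higher one was Golga4, a Golgi protein gene 20.1 kb from Eomes, at 227, 237 and 260.3 CPM in Ts1Cje and 143, 159.6 and 159 CPM in WT libraries (log2 fold change 0.65 ± 0.07, edgeR's quasi-likelihood test, adjusted p = 8.76e-05). Of 14 tested protein-coding genes within 100 kb of Tbx6, 7 were lower, by log2 values of -0.24 to -1.02, and 0 were higher. Pde10a, 82.9 kb from T, was lower as well (-0.95 ± 0.22, adjusted p = 0.00566).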
